A study of Mus musculus with 6 samples.

Results

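The IFIT and OAS genes are antiviral effectors, and 9 of them were followed here in cultures of enteric glial cells (EGCs). EGCs ensheathe the neurons of the intestine. The cultures were studied with and without exposure to lipopolysaccharide (LPS, a bacterial cell wall component sensed by TLR4). They also held RNA of other cell types, so each value belongs to a whole culture and not to EGCs alone. The 9 genes were chosen by symbol: Ifit1, Ifit2 and Ifit3, the OAS genes Oas1a, Oas1g, Oas2 and Oas3, and the OAS-like genes Oasl1 and Oasl2. Each symbol matched 1 of the 46603 gene identifiers in the counts, and all 9 passed the filter on low counts, as did 15226 genes in all. The cultures were grown out of neurospheres made from total intestine of E14.5 (mid-gestation) C57BL/6J mice, expanded for a week with EGF and FGF and then kept in serum until confluence. All 6 cultures shared this treatment: 3 received nothing further (control) and 3 received LPS at 100 ng/ml for 12 h. A replicate number was given for each culture, but no source stated whether replicates came from separate litters or dissections, so p-values measure the spread between these cultures only.

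IFIT proteins bind viral or foreign-looking RNA, for example RNA whose cap lacks host methylation, and block its translation. OAS enzymes sense paired RNA strands and make short chains of linked adenylates as an antiviral signal. The OAS-like proteins share the fold; Oasl1 is known to restrain translation of Irf7 mRNA, and Oasl2 is an enzymatically active relative. Both families are classical interferon-stimulated genes: type I interferon signals through its receptor to transcription factors, STAT2 and IRF9 among them, that bind a promoter element called the interferon-stimulated response element (ISRE). TLR4 can reach the same element through the adaptor TRIF, the kinase TBK1 and the factor IRF3.

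The genes lie in 3 clusters on 2 chromosomes of the GRCm38 genome in the GENCODE M21 annotation, and all are protein-coding. On chromosome 19, plus strand, lie Ifit2 (chr19:34550694-34576419), Ifit3 (chr19:34583531-34588731) and Ifit1 (chr19:34640871-34650009). On chromosome 5 lie Oasl2 (chr5:114896936-114912234) and Oasl1 (chr5:114923240-114937915) on the plus strand, and Oas2 (chr5:120730333-120749853), Oas3 (chr5:120753098-120777661), Oas1g (chr5:120876142-120887613) and Oas1a (chr5:120896256-120907521) on the minus strand. The counts cover exons. Several of these genes have near copies, and reads that fit both could not be placed with certainty. Of the 50-base words in the transcripts of Oas1a, 57.6% also occurred in another gene, mostly Oas1g, and 45.7% of those of Oas1g, mostly in Oas1a. For Ifit3 the share was 51.2%, with Ifit3b as the partner. It was 7.13% for Ifit1 (mostly Ifit1bl2), 0.521% for Oas3, 0.138% for Oasl2 and 0 for Ifit2, Oas2 and Oasl1. Oasl1 overlapped Gm13822, a gene on the opposite strand, over 38 exonic bases.

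Promoters were examined because the members are known ISRE-driven genes. RefSeq windows (GRCm38.p6) of 250 bases before to 50 after the annotated start of transcription were found for 8 of the 9 members, Oas2 being the one not matched. The windows were searched on both strands for the ISRE core GAAANNGAAA (where N is any base), and overlapping matches were each counted. The core occurred in the windows of 5 of the 8 genes, against 3.44% of all 32851 windows and 3.99% of the 27025 genes with a window. The stretches that hold the matches are given for these 5 genes, and for Ifit3b beside its near copy Ifit3. They are written 5′ to 3′ on the strand of the gene and end before the start of transcription. Capitals mark the core, which reads as its reverse complement where it lies on the other strand.
Ifit1 (chr19:34640755-34640843, plus strand): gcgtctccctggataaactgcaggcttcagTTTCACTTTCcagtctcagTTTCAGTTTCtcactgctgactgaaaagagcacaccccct
Ifit3 (chr19:34583343-34583446, plus strand): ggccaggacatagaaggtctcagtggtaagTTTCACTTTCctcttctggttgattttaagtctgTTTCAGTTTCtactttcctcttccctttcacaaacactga
Ifit3b (chr19:34607739-34607842, plus strand): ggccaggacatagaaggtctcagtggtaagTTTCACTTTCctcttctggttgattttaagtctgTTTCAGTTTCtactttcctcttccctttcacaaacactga
Oas1a (chr5:120907526-120907575, minus strand): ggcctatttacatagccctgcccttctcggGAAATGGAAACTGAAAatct
Oas1g (chr5:120887614-120887661, minus strand): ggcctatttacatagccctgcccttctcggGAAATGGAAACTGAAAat
Oas3 (chr5:120777695-120777764, minus strand): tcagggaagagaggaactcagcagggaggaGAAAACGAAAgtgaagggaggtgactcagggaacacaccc

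In Ifit1 the core occurred at positions -104 and -85 from the start, and in Ifit3 at -156 and -122, both times on the other strand. The stretch printed for Ifit1 also lies upstream of Ifit1bl2, which is transcribed the opposite way, with the cores at -70 and -51 from the nearer of its 2 annotated starts; the window of the other start held none. The 104 bases printed for Ifit3 and Ifit3b were identical. In Oas1a and Oas1g overlapping cores lay within 20 bases of the start (-20 and -14, and -18 and -12), in 48 bases that were identical in both genes. Oas3 held 1 core at -75. The windows of Ifit2 (2 annotated starts), Oasl1 and Oasl2 did not contain these letters, which says nothing about binding elsewhere. A match describes the sequence and is not evidence of a bound factor.

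**Figure D1:**
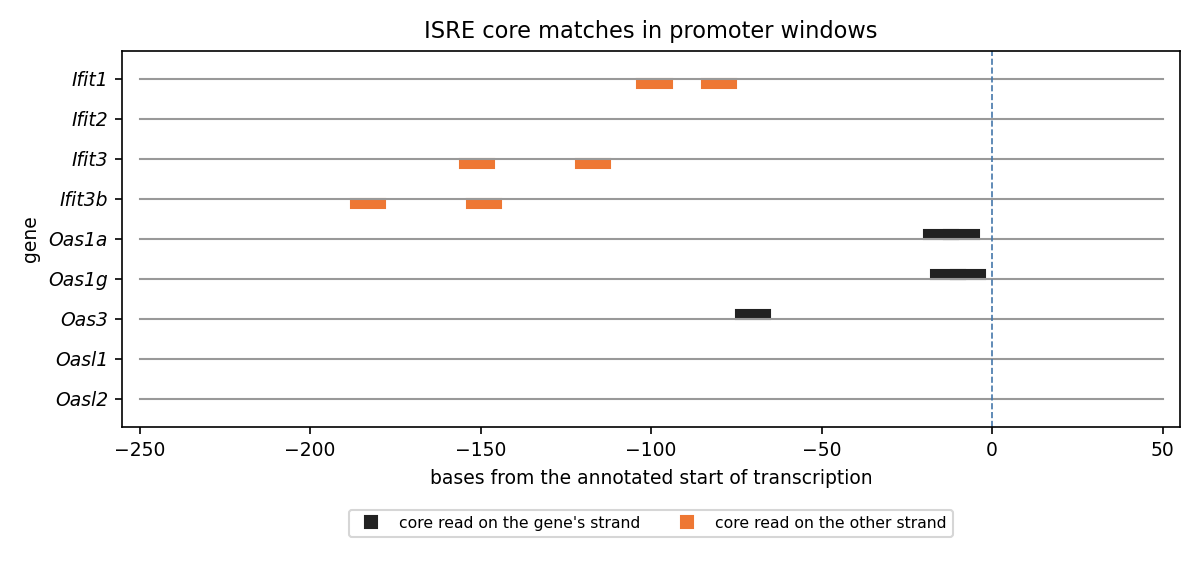
ISRE core matches (boxes) in the promoter windows of 8 members and Ifit3b, by distance in bases from the annotated start of transcription (dashed line); black boxes lie on the strand of the gene and orange boxes on the other. Ifit2, Oasl1 and Oasl2 have no box, and the boxes of Oas1a and Oas1g lie next to the start.

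Before the values are read, the make-up of the libraries matters. Total counts ranged from 18775316 to 23664312, and a gene with 3 counts corresponded to 0.124 to 0.167 CPM (counts per 1e6 of the library size, corrected by TMM, the trimmed mean of M-values). All 8 glial markers, among them Sox10 and S100b, were above 3 counts in each library, with a summed level of 332 to 459 CPM in control and 378 to 395 CPM in LPS. Of these, 1 was called lower in LPS (S100b, from a mean of 22.2 to 5.92 CPM) and 1 higher (Fabp7, from 2.55 to 6.27 CPM). Markers of other cells were present too, and the macrophage, mesenchymal and smooth muscle sums were above the glial sum in every library. Sums over different genes do not give shares of cells. All 12 macrophage markers were detected in the cultures, 11 of them above 3 counts in every library. Their sum was 4107, 5321 and 12623 CPM in control replicates 1, 2 and 3. In LPS replicates 1, 2 and 3 it was 4044, 5240 and 20205 CPM. Lyz2 was the largest part, with 7978 CPM in control replicate 3 and 11480 CPM in LPS replicate 3. Of the 12, 1 was called higher in LPS and 0 lower, with a median log2 fold change of 0.33. Single markers moved both ways: Adgre1 from a mean of 287 to 1971 CPM, and Mrc1 from 427 to 50.3 CPM. Each of the 12 was highest in the library numbered 3 of its group. Mesenchymal markers summed to between 14781 and 15716 CPM, with 2 of 6 called higher in LPS (Dcn and Pdgfra). Smooth muscle markers moved with LPS, from 2480, 2492 and 2266 CPM in control to 900, 882 and 634 CPM. Of these, 6 of 6 were called lower, where 6.71% of all genes tested were called lower and 9.09% higher. The part of these changes in that of the members was not tested. Endothelial markers were low, at 8.05 to 20.7 CPM in sum, and highest in the libraries numbered 3. Neuronal markers summed to 393, 388 and 237 CPM in control and 362, 380 and 250 CPM in LPS, the lowest in the libraries numbered 3. Of these, 1 of 5 was called lower in LPS. In such bulk samples fewer cells of a type and less RNA per cell cannot be told apart. Where leaving out a library numbered 3 moves a fold change by over 1.5 times, the value without it is given.

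All 9 members rose with LPS. With the edgeR quasi-likelihood test, adjusted by Benjamini-Hochberg over 15226 genes, 9 of 9 were called higher (adjusted p under 0.05) and 0 lower (also 0 with DESeq2 and at an unadjusted p under 0.05), where 9.09% of all genes tested were called higher and 6.71% lower. Every LPS library lay above every control library for all 9, as for 19.3% of the genes tested. The median log2 fold change was 5.81 for the members and -0.02 for all genes. Together the 9 genes took 0.00679%, 0.007% and 0.00573% of the counts in the control libraries and 0.17%, 0.19% and 0.285% in the LPS libraries. All 9 were also called without both libraries numbered 3 (an alternative chosen after seeing the data), with a median of 5.53, and the median was 5.04 without LPS replicate 3 alone. Without control replicate 2 the number called was 6 (not Ifit2, Oas1g and Oas3), and without control replicate 1 or 3 it was 8 (not Ifit2).

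**Figure D2:**
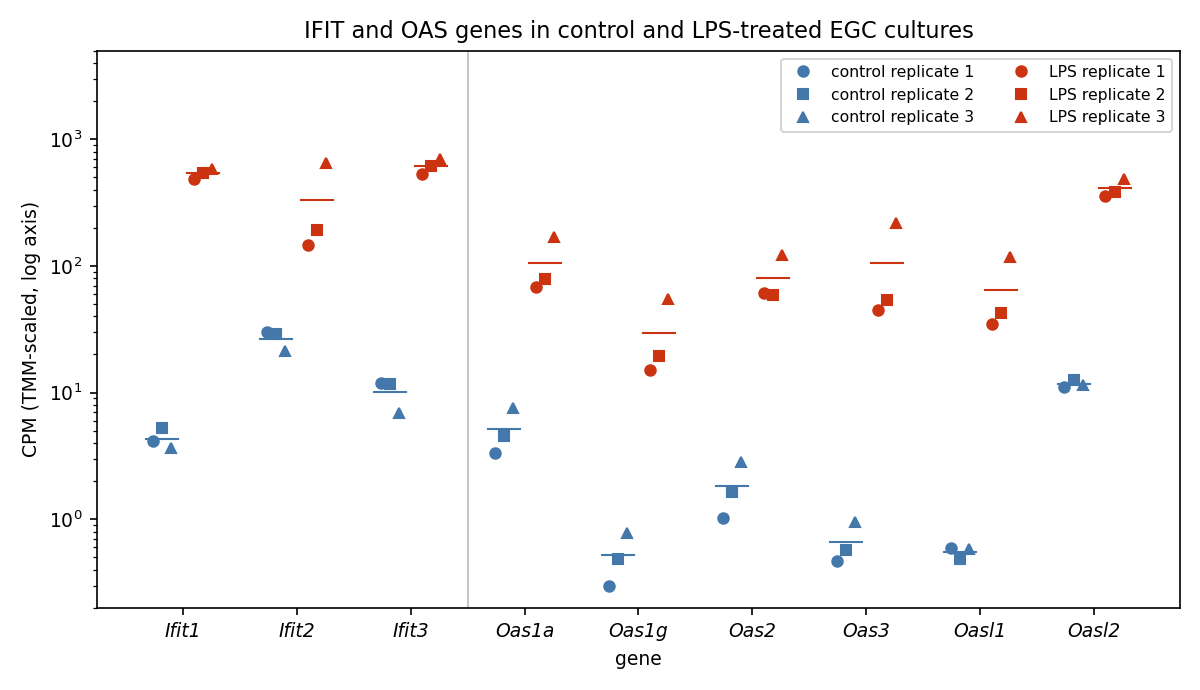
CPM (log axis) of the 9 members in each of the 6 libraries; symbols give the replicate number, colours the group, and horizontal bars the group mean. The groups do not overlap for any of the genes, and LPS replicate 3 (triangles) is the highest library for all of them.

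Ifit1, a binder of RNA caps, rose evenly. It was at 4.15, 5.22 and 3.64 CPM in control replicates 1, 2 and 3 and at 489, 545 and 582 CPM in LPS replicates 1, 2 and 3. The LPS libraries lay close together, far above the controls. Control averaged 4.34 ± 0.809 CPM and LPS 539 ± 46.9 CPM (SD, n = 3 each). This was a log2 fold change of 6.96 (SE 0.19, edgeR adjusted p = 7.71e-05).

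Ifit3, whose human counterpart stabilizes IFIT1 on RNA, started higher. Its control libraries held 11.9, 11.7 and 6.86 CPM and its LPS libraries 532, 610 and 705 CPM. Control replicate 3 was the low one and LPS replicate 3 the high one. The log2 fold change was 5.92 (SE 0.29, edgeR adjusted p = 0.000293). Its near copy Ifit3b averaged 2.63 ± 0.889 CPM at rest and 168 ± 25.7 CPM under LPS (SD, n = 3 per group). Its log2 fold change was 6.00 (SE 0.31, edgeR adjusted p = 0.000353), but reads may be split between the pair.

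Ifit2, which binds RNA together with the other IFIT proteins and is linked to cell death, behaved differently from library to library. It was at 30.0, 28.9 and 21.3 CPM in control, the highest resting level of the 9 genes. In LPS it was at 147, 192 and 651 CPM, so that LPS replicate 3 stood at 3.84 times the mean of the other two. The log2 fold change was 3.63 (SE 0.64, edgeR adjusted p = 0.0188), the smallest of the 9. The call was lost without control replicate 1, 2 or 3 (edgeR adjusted p = 0.0812, 0.0941 and 0.0507), with log2 fold changes of 3.72, 3.69 and 3.50. Without LPS replicate 3 the log2 fold change was 2.66 (edgeR adjusted p = 0.00129), and without both libraries numbered 3 it was 2.55.

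The order of the IFIT genes therefore turned over. Per kilobase of exon, the control means were 6.81 ± 1.20 for Ifit2, 5.82 ± 1.63 for Ifit3 and 1.63 ± 0.305 CPM per kb for Ifit1 (SD, n = 3 each). Ifit2 and Ifit3 lay within their spread of each other, and Ifit1 below both. Within each control library Ifit2 exceeded Ifit3, with log2 ratios of Ifit3 to Ifit2 of -0.17, -0.13 and -0.47. Ifit3 shares 51.2% of its words with Ifit3b, so its level may be affected by reads placed on either gene. In LPS the means were 353 ± 49.7 for Ifit3, 203 ± 17.7 for Ifit1 and 84.0 ± 71.0 CPM per kb for Ifit2 (SD, n = 3 each), each step larger than the spread. Within a library, the log2 ratio of Ifit1 to Ifit2 per kb was -2.29, -1.90 and -1.99 in control and 2.30, 2.07 and 0.40 in LPS. Ifit2 exceeded Ifit1 in every control and Ifit1 exceeded Ifit2 in every LPS library, though by less in LPS replicate 3. Ifit2 made up 47.7%, 45.9% and 50.6% of the summed IFIT level per kb in control and 7.12%, 8.1% and 21% in LPS. These ratios were chosen after their values were seen and are given as a description.

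Among the OAS enzymes, Oas3, the longest of the family and a sensor of long paired RNA, had the largest change. It was low at rest, with 11, 13 and 23 counts or 0.466, 0.575 and 0.951 CPM. In LPS it reached 44.9, 54.1 and 218 CPM. LPS replicate 3 was 4.41 times the mean of the other two, and all LPS libraries were far above all controls. The log2 fold change was 7.30 (SE 0.89, edgeR adjusted p = 0.00648), and it was 6.20 without LPS replicate 3. The call was lost only without control replicate 2 (log2 fold change 7.21, edgeR adjusted p = 0.0519).

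Oas2, another enzyme of this family, was at 1.02, 1.64 and 2.81 CPM in control and at 61.3, 59.3 and 122 CPM in LPS. In both groups replicate 3 was about as far above the others, by 2.12 times in control and 2.03 times in LPS. The log2 fold change was 5.47 (SE 0.51, edgeR adjusted p = 0.00263), and the changes within a replicate number were 5.91, 5.18 and 5.44.

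Oas1a, an active enzyme and the mouse counterpart of human OAS1, was at 3.31, 4.52 and 7.56 CPM in control and 68.7, 78.7 and 170 CPM in LPS. Replicate 3 was again the highest in each group. The log2 fold change was 4.36 (SE 0.51, edgeR adjusted p = 0.0056). Its near copy Oas1g had 7, 11 and 19 counts in control (0.297, 0.487 and 0.785 CPM) and 303, 350 and 1042 counts in LPS (15, 19.5 and 54.5 CPM). Oas1g thus rose from a low level, with a log2 fold change of 5.81 (SE 0.71, edgeR adjusted p = 0.00637), and 5.02 without LPS replicate 3. Its call was lost without control replicate 2 (log2 fold change 5.76, edgeR adjusted p = 0.051), and the gene drops out where at least 10 counts are required in every library. Oas1g was at 12.7 ± 9.25 CPM per kb under LPS and Oas1a at 56.1 ± 29.6 CPM per kb (SD, n = 3 each), with the caveat that reads may be shared.

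The OAS-like genes differed from each other at rest and in spread. Oasl2 was at 11.1, 12.5 and 11.5 CPM in control and 359, 386 and 490 CPM in LPS. These were tight groups, with a log2 fold change of 5.14 (SE 0.16, edgeR adjusted p = 0.000108). Oasl1 was at 0.593, 0.487 and 0.579 CPM in control, which is 14, 11 and 14 counts. In LPS it was at 34.6, 42.2 and 118 CPM, with LPS replicate 3 at 3.07 times the mean of the others. The log2 fold change was 6.86 (SE 0.65, edgeR adjusted p = 0.00275), and 6.10 without LPS replicate 3. The log2 ratio of Oasl1 to Oasl2 per kb was -2.93, -3.39 and -3.02 in control and -2.08, -1.90 and -0.77 in LPS, so Oasl2 remained the more abundant in all libraries.

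Per kilobase, the control means of the OAS genes ran from 2.72 ± 1.16 for Oas1a and 1.83 ± 0.115 for Oasl2 through 0.409 ± 0.205 for Oas2, 0.223 ± 0.105 for Oas1g and 0.212 ± 0.0221 for Oasl1 to 0.0939 ± 0.0359 CPM per kb for Oas3 (SD, n = 3 each). Oas1a and Oasl2, and the trio Oas2, Oas1g and Oasl1, lay within their spread between libraries, but within each control library Oas1a exceeded Oasl2 and Oas2 exceeded Oas1g. In LPS the order was Oasl2 (64.5 ± 10.9), Oas1a (56.1 ± 29.6), Oasl1 (24.9 ± 17.6), Oas2 (18.2 ± 8.04), Oas3 (14.9 ± 13.8) and Oas1g (12.7 ± 9.25 CPM per kb; SD, n = 3 each), with Oas1a above Oasl1 in every LPS library. The differences between the other neighbours were smaller than the larger SD of the 2, and their order changed from library to library. Oas1a made up 42.4%, 46.1% and 56.2% of the summed OAS level per kb in control and 27.5%, 28.3% and 30.7% in LPS.

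Whether the IFIT and OAS groups moved apart was asked with the log2 ratio of their summed levels per kb within a library. It was 1.95, 1.62 and 0.59 in control and 1.99, 2.03 and 1.42 in LPS, which overlap. The difference was 0.43 (exact permutation test, two-sided, p = 0.5, n = 3 each; the smallest p this design allows is 0.1). Within replicate numbers 1, 2 and 3 the differences were 0.04, 0.41 and 0.84, all of one sign (exact sign-flip test, added after seeing the data, p = 0.25, the smallest it can give). The sign of the mean difference depended on the measure: without length correction it was -0.08 (exact permutation p = 0.8, n = 3 each), and without the members that share over 10% of their words (Ifit3, Oas1a and Oas1g) it was -0.46 (exact permutation p = 0.3, n = 3 each).

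**Figure D3:**
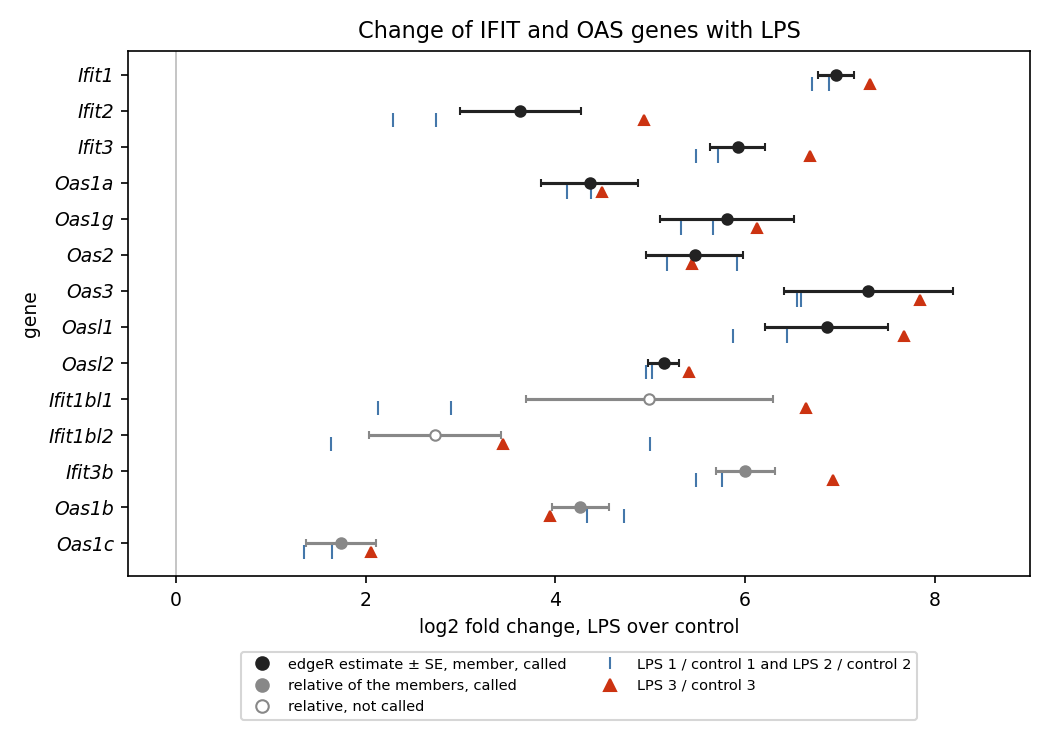
Log2 fold change (LPS over control) of the 9 members and 5 relatives: circles with bars are edgeR estimates ± SE (filled when called), ticks are the ratios within replicates 1 and 2, and red triangles the ratio within replicate 3. The triangle lies right of both ticks for 8 of the 9 members (Oas2 is the exception), and farthest for Ifit2.

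The libraries numbered 3 treated the members unequally. LPS replicate 3 was the highest LPS library for 9 of 9 members, but by very different amounts. Relative to the mean of LPS replicates 1 and 2 it was at 1.13 for Ifit1, 1.23 for Ifit3 and 1.32 for Oasl2. The ratio was 2.03 for Oas2 and 2.31 for Oas1a, and 3.07 for Oasl1, 3.16 for Oas1g, 3.84 for Ifit2 and 4.41 for Oas3. Over all genes tested this ratio ran from 0.388 at percentile 5 to 2.44 at percentile 95, and 4 of the 9 members lay above it. Control replicate 3 divided them otherwise. It was the highest control for Oas1a, Oas1g, Oas2 and Oas3, at 1.93, 2, 2.12 and 1.83 times the mean of the other controls. Control replicate 3 was the lowest for Ifit1, Ifit2 and Ifit3, at 0.776, 0.724 and 0.582. Over all genes tested this ratio ran from 0.415 at percentile 5 to 2.04 at percentile 95, and Oas2 was the 1 member outside it. Oasl1 (1.07) and Oasl2 (0.976) barely moved. Relative to the mean of the others of their group, the summed macrophage markers (mostly Lyz2) stood at 2.68 in control replicate 3. In LPS replicate 3 they stood at 4.35. Single macrophage markers ran from 2.41 (Ptprc) to 8.84 (Cx3cr1) in control. In LPS they ran from 2.74 (Cd68) to 52.2 (Cx3cr1, at 0.198 and 0.167 CPM in LPS replicates 1 and 2). The summed glial markers stood at 0.773 and 0.964, but Gfap stood at 1.64 and 2.89, and S100b at 0.946 and 2.23. The part of these cells in the values of the members was not tested. Without both libraries numbered 3, the log2 fold changes of the members ran from 2.55 (Ifit2) to 6.81 (Ifit1).

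**Figure D4:**
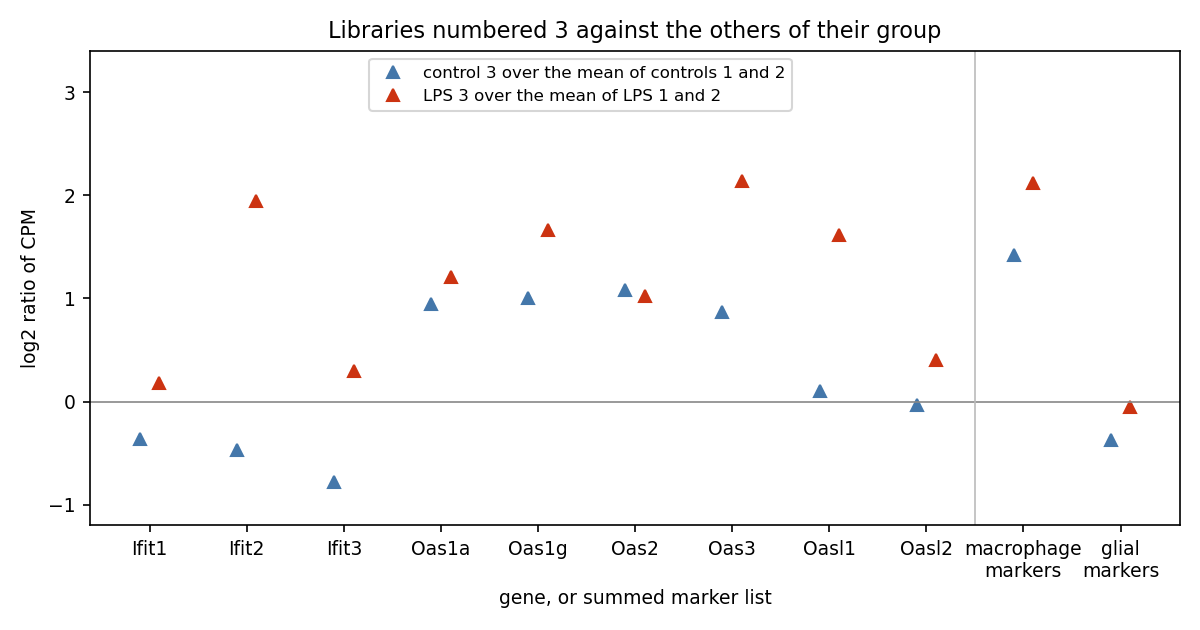
Log2 ratio of the library numbered 3 to the mean of libraries 1 and 2, in control (blue) and LPS (red), for each member and for the summed macrophage and glial markers. Oas3 and Ifit2 (red) lie near the height of the summed macrophage markers (mostly Lyz2) in LPS, and Ifit1, Ifit3 and Oasl2 near 0. The 3 IFIT genes fall below 0 in control.

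The files held 9 further genes of these families. Besides Ifit3b, Oas1b, which the annotation lists as a polymorphic pseudogene, averaged 1.20 ± 0.445 CPM at rest and 23.2 ± 2.77 CPM under LPS (SD, n = 3 per group; fitted log2 change 4.26, SE 0.30, edgeR adjusted p = 0.00104). Oas1c, an OAS1 relative, was called with a smaller change (1.74, SE 0.37, edgeR adjusted p = 0.0306), and that call was lost without control replicate 1 or 2 or LPS replicate 1 or 2 (up to 0.124). Ifit1bl1 was at 1.02, 1.33 and 0.909 CPM in control and 7.61, 5.80 and 90.7 CPM in LPS. Here LPS replicate 3 was 13.5 times the mean of the others, and the gene was not called (log2 fold change 4.99, SE 1.30, edgeR adjusted p = 0.0522). It was called with the replicate number as a block (4.12, edgeR adjusted p = 0.0401) and without LPS replicate 3 (2.62, edgeR adjusted p = 0.0032). Ifit1bl2, which shares its upstream stretch with Ifit1, was at 0.847, 0.0885 and 0.207 CPM in control and at 2.62, 2.84 and 2.25 CPM in LPS. It was not called (2.73, SE 0.70, edgeR adjusted p = 0.0508), but was with the block (2.89, edgeR adjusted p = 0.0303), by DESeq2 (adjusted p = 0.00237) and by limma-voom (0.0282). Without control replicate 1, its highest control, the log2 fold change was 4.06 (edgeR adjusted p = 0.0192). Oas1d, Oas1e, Oas1f and Oas1h held 15, 1, 2 and 0 counts over all 6 libraries and were not tested.

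Next, genes that act before and after the IFIT and OAS proteins were examined by role. Of 26 such genes 25 could be tested. The test called 15 higher and 0 lower, where 9.09% of all genes tested were called higher and 6.71% lower. The median log2 fold change of the list was 1.46. In the list the number lower was also 0 with DESeq2 and at an unadjusted p under 0.05. The replicate block gave 19 higher and 0 lower in the list, and 2343 of 15226 genes higher in all. Without control replicate 2 the list had 9 higher, and 379 of 15564 genes were higher in all.

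Downstream of OAS, edgeR called 0 of 2 genes, and DESeq2 and an unadjusted p under 0.05 also gave 0. Pde12, which degrades the OAS products, and Abce1, a ribosome recycling factor, had log2 fold changes of 0.05 and 0.12, and both turned negative when scaled by library size alone (-0.11 and -0.03).

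Upstream, 3 of 8 genes from TLR4 to interferon were called higher. Ikbke, a kinase related to TBK1, averaged 32.5 ± 7.89 CPM at rest and 226 ± 105 CPM under LPS (SD, n = 3 per group; fitted log2 change 2.80, edgeR adjusted p = 0.00839). Tbk1 (0.66) and Ly96 (0.64), which encodes the TLR4 partner MD-2, were called with smaller changes. Tlr4 itself, at 92.9 ± 6.75 and 94.3 ± 5.40 CPM (SD, n = 3 each), and Irf3, at 42.3 ± 3.29 and 41.3 ± 3.71 CPM, had log2 fold changes of 0.02 and -0.03. Cd14, the LPS co-receptor (2.22, edgeR adjusted p = 0.101), and Ticam2, the adaptor TRAM (1.46, edgeR adjusted p = 0.0685), were called with the block (2.47 and 1.48, edgeR adjusted p = 0.00436 and 0.00421). Without control replicate 3, at 92.4 CPM the highest control, Cd14 was called at 3.28 (edgeR adjusted p = 0.0285). Ticam1, which encodes TRIF, had a log2 fold change of 0.21 and was not called (edgeR adjusted p = 0.108). It was called by DESeq2 (0.23, adjusted p = 0.0469), and was at 0.06 by library size alone.

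For the ligand, Ifnb1 held 0 counts in all 3 controls and in LPS replicates 1 and 2, and 17 counts (0.89 CPM) in LPS replicate 3. A count of 0 allows up to 3 counts, so interferon beta mRNA was not detectable in 5 of 6 libraries at this depth after 12 h, and the gene was not tested. Of the receptor chain genes, Ifnar2 was called (1.06, edgeR adjusted p = 0.00834) and so was Jak1 (0.34, edgeR adjusted p = 0.0477). Ifnar1 (0.54) and Tyk2 (0.68) were not (edgeR adjusted p = 0.132 and 0.0786), but were with the block (0.00598 and 0.00617). The calls of Ly96, Tbk1, Ikbke, Ifnar2, Jak1 and Dhx58 were lost without control replicate 2 (edgeR adjusted p from 0.0533 to 0.172), and those of Ly96, Tbk1 and Jak1 also without other single libraries. Jak1 was also not called with upper-quartile factors (0.23, edgeR adjusted p = 0.144), with library size alone (0.18, edgeR adjusted p = 0.209) or with no filter on low counts (edgeR adjusted p = 0.106), and Tbk1 not without the filter (edgeR adjusted p = 0.0509).

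The 4 transcription factors examined were all called higher. Irf7, which amplifies interferon production, changed most, from 4.03, 4.52 and 5.12 CPM to 467, 493 and 955 CPM (log2 fold change 7.13, SE 0.39, edgeR adjusted p = 0.000417). Stat2, Irf9 and Irf1 had log2 fold changes of 2.98, 2.07 and 1.99. Irf9 was even across LPS libraries (119, 120 and 120 CPM). Both feedback genes were called: Usp18, which dampens the interferon receptor, by 6.52, and Socs1, an inhibitor of JAK kinases, by 3.09. Of the sensors of paired RNA, Ddx58 (RIG-I), Ifih1 (MDA5), Dhx58 (LGP2) and Eif2ak2 (PKR) were called, with log2 fold changes from 2.10 (Eif2ak2) to 4.21 (Dhx58, which was at 3.61 without LPS replicate 3). Mavs, the adaptor of RIG-I and MDA5, was not (-0.08, edgeR adjusted p = 0.77).

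**Figure D5:**
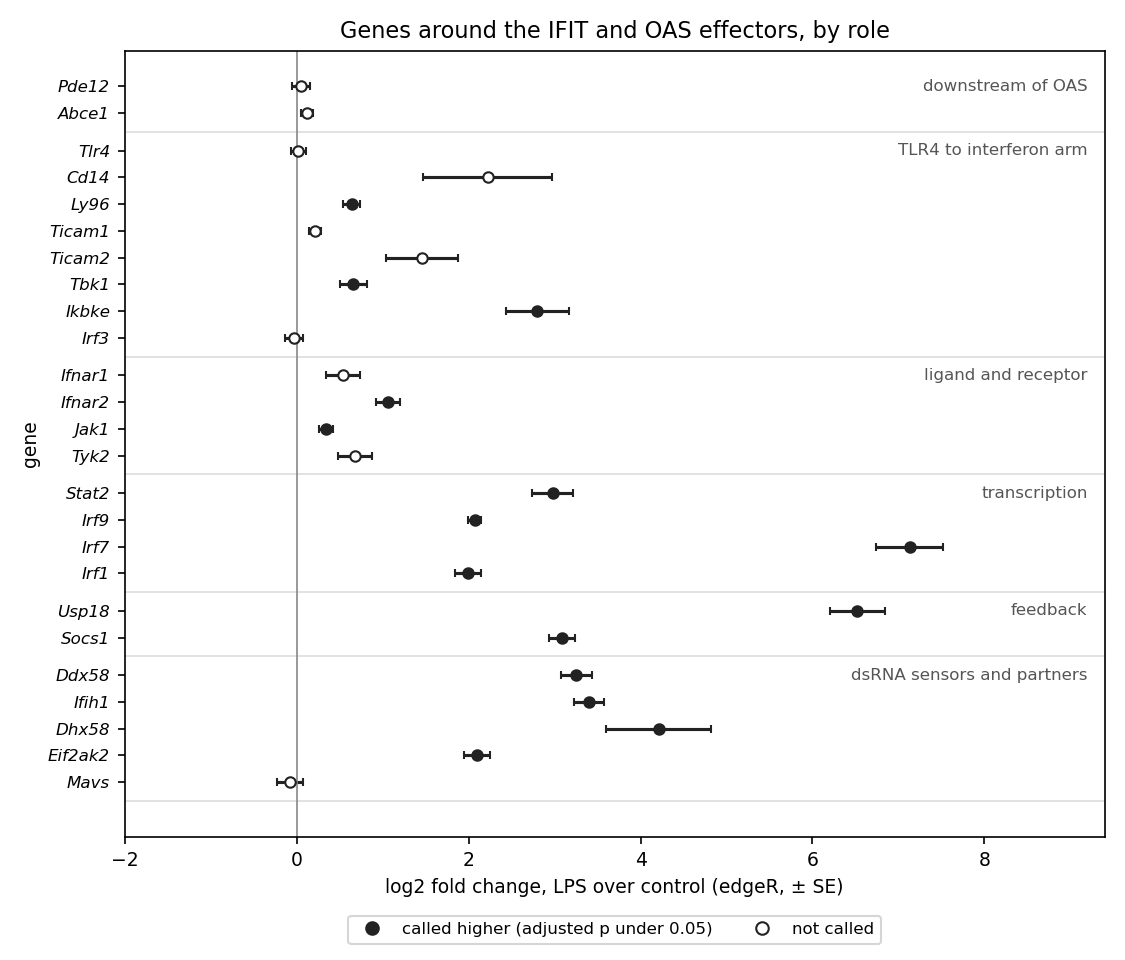
Log2 fold change (LPS over control, edgeR ± SE) of 25 genes grouped by role around the IFIT and OAS effectors; filled points were called higher. All 4 transcription factors and both feedback genes are filled, no gene of the top group is, and Irf7 and Usp18 lie farthest right.

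Outside these lists, the genes whose profile over the 6 libraries was most like the mean profile of the 9 members were Tap1, AW112010, Mov10, Ifi35 and Parp10 (Pearson r of log2 CPM from 0.9992 to 0.9984, among 11792 genes with at least 5 CPM in a group). Tap1 was at 19.2, 19.3 and 19.1 CPM in control and at 110, 119 and 177 CPM in LPS. AW112010 went from 0.297, 0.31 and 0.537 CPM to 33.2, 39.6 and 97.4 CPM. After the group means were removed, the closest genes were Hs6st1, Ano6, Emc2, Il23r and Fam204a (r from 0.9997 to 0.9991). Of these, Il23r was called higher; it was at 0, 0.0443 and 0.0827 CPM in control and 1.48, 2.01 and 13.9 CPM in LPS. With 6 points that share libraries and depth, these are descriptions only.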

How the data were processed

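Poly(A) RNA of 3 control and 3 LPS-treated EGC cultures was sequenced with a stranded Illumina kit. The deposited values were raw read counts per gene. Per the submitters' processing notes, the authors used cutadapt 1.15, Bowtie2 2.3.3.1, STAR 2.5.2b, SAMtools 1.5 and featureCounts 1.5.3 with GRCm38. Strand setting and treatment of reads with several alignments are not given in the sources used here. The series-wide table repeated the same 6 columns and was not used. Totals were 18775316 to 23664312 counts per library, no pair of libraries was identical, and limits from counts cover counting error only.

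Genes were filtered with filterByExpr (minimum count 10, minimum total 15) and scaled with TMM factors, from 0.917 to 1.08. Groups were compared with the two-sided quasi-likelihood F-test of edgeR 4.0.16 (R 4.3.3), with Benjamini-Hochberg adjustment over 15226 genes and calls at 0.05. The SE was taken as |log2 fold change| over the square root of F. The script was tested on simulated data. Alternatives were other scaling factors, other filters, leaving out each library, DESeq2 1.42.0, voom of limma 3.58.1, and a block for the replicate number. Deviations from the group means correlated between same-numbered libraries (r = 0.513, 0.334 and 0.613 for numbers 1, 2 and 3, across genes). Libraries 1 and 2 also correlated across numbers (0.419 for control 1 with LPS 2, and 0.323 for control 2 with LPS 1). The data thus set number 3 apart but do not settle how the cultures numbered 1 and 2 pair. The labels do not state a pairing either. The block and the values within a replicate number take the numbers as pairs, and the main test does not.

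Named were all members, their relatives in the files, the pathway genes by role, and the 5 genes most alike (log2 CPM, prior count 2). Exon lengths are the union of GENCODE M21 exons. Some pathway genes are not reported here. The members and lists were chosen with earlier results of these data known.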

Additional observations from a re-analysis of the deposited data

How the results depend on the processing

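Of 134 values of single members under the alternatives, 129 kept their direction and side of the 0.05 limit and 5, all in fits without a control library, fell short of it. Members called higher numbered 6 to 9 in the fits that left out a library, with the fewest without control replicate 2, and 8 with at least 10 counts in every library, where Oas1g was not tested; under the other settings there were 9. None was called lower. The median log2 fold change ran from 5.04 (without LPS replicate 3) to 6.02 over the fits that left out a library. The pathway list had 9 to 17 genes higher in these fits and 0 lower in any. Besides the calls named above, the replicate block changed no call of a member. The IFIT to OAS difference of 0.43 ran from 0.03 to 0.71 without single libraries, and was -0.08 without length correction and -0.46 without members that share words. The cause of these sign changes was not tested.

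Over all genes, 1384 were called higher and 1022 lower. With upper-quartile scaling 1050 were higher and 1589 lower, and by library size 986 and 2054, so higher genes made up 39.8% and 32.4% of the calls against 57.5%; the median of all genes moved from -0.02 to -0.12 and -0.18. DESeq2 called 2079 higher and 1673 lower, the replicate block 2343 and 2273, and the fit without both libraries numbered 3 called 3498 and 3159. Leaving out single libraries gave 379 to 1964 higher and 112 to 1426 lower. The cause was not tested. Near 0, the direction turned for Pde12 (-0.05 with upper-quartile factors, -0.11 by library size), Tlr4 (-0.08 and -0.13) and Abce1 (-0.03 with library size alone), and, over the fits without single libraries, for Pde12 (from -0.03 to 0.11), Tlr4 (-0.03 to 0.08), Irf3 (-0.11 to 0.04) and Mavs (-0.25 to 0.03). Depth limits Oas1g, Oas3 and Oasl1, which held 7 to 23 counts per control library.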
